A study of Homo sapiens with 3 samples.

Results

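The genes described here are 48 human genes of the endoplasmic reticulum (ER). They encode the machinery that moves new proteins into the ER, cuts, glycosylates and folds them there, and reports or removes those that fail to fold. They were taken by name from a fixed list, which was chosen with earlier results of these data known. All 48 matched a symbol among 19974 protein-coding genes of the RefSeq table for chromosomes 1 to 22 and X. For each gene the deposited peaks were read within 1 kb of either end of its annotated span, which is called a gene-end peak below, and over the span itself. The data were CUT&Tag peak lists from A2780, a human ovary carcinoma cell line, with 1 library in each of 3 groups. The BPP library was made with an antibody to histone H3 acetylated at lysine 27 (H3K27ac) from cells given the BPP peptide, which the series design describes as competing for the phosphorylation site of BIN2. The CTR library used the same mark in control cells, and the IgG library used a non-specific antibody as background. Dose, time and the treatment of the control cells are not stated for these libraries, and all groups came from the same line, grown in DMEM with serum.

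H3K27ac is a mark of active promoters and enhancers, and CUT&Tag cuts and tags the DNA beside the marked nucleosomes. Secretory proteins are recognised by the signal recognition particle, handed to its receptor on the ER and threaded through the Sec61 channel. The signal peptidase removes the signal sequence, the oligosaccharyltransferase adds sugar chains, and calnexin, calreticulin and the disulfide isomerases fold the product. When unfolded proteins build up, the sensors IRE1 (gene ERN1), PERK and ATF6 start the unfolded protein response, which raises chaperone and degradation genes through the factors XBP1, ATF4 and ATF6. Tumour cells with a heavy secretory or metabolic load are known to lean on this response.

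The lists held 17841 BPP, 14836 CTR and 7701 IgG peaks on the chromosomes used, and the read depth behind them was unknown. Each condition had a single library, so no difference between BPP and CTR has a replicate check and no test was run between them. A peak found in one list only is a fact about the lists, since the other library may have had signal just under the threshold of the peak caller. More cells carrying the mark and more of the mark per cell cannot be told apart. Fold enrichment and −log10 q (the confidence of a peak, higher being surer) are the authors' values and describe a peak within its own list. Among 10 ovarian and epithelial carcinoma markers, KRT8 and KRT18 had gene-end peaks in both H3K27ac lists, and the other 8, among them PAX8, WT1, MUC16 and EPCAM, had none in either. Annotated starts were at hand for 5 of the 10, and of these KRT8 alone had a peak within 1 kb of its start, in BPP only. The mesenchymal markers VIM and ZEB1 had peaks in both lists, CDH2 and FN1 in neither, and none of 4 blood cell markers had any.

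A larger share of the ER genes than of protein-coding genes at large carried H3K27ac at their ends, in the treated and in the control library alike. In BPP, 32 of 48 had a gene-end peak (66.7%, 95% Wilson interval 52.5 to 78.3), against 30.6% of all protein-coding genes. In CTR, 33 of 48 had one (68.8%, 54.7 to 80.1), against 31.2% of all genes. In IgG, 4 of 48 had one (8.33%, 3.3 to 19.6), against 2.13%. The intervals cover the counting of genes and not the spread between cultures. By gene, 25 ER genes were marked in both H3K27ac lists, where the share among all genes was 23.6%. Another 7 were marked in BPP only (14.6%, against 7.03% of all genes) and 8 in CTR only (16.7%, against 7.57%). A gene-end peak in at least 1 H3K27ac list was present at 40 of 48 ER genes (83.3%), against 38.2% of all genes. Of these 40, 7 were in BPP only and 8 in CTR only, beside 1405 and 1513 of the 7628 marked genes in all. The larger shares in 1 list only are thus to be read beside the larger share marked at all. The remaining 8 had no gene-end peak in either, which is 16.7% of the ER genes and 61.8% of all genes. How many ER genes stood in BPP only and in CTR only depended on the strength asked of a peak. With a −log10 q of 5 or more, 11 ER genes were in BPP only (22.9%, against 6.89% of all genes) and 8 in CTR only (16.7%, against 7.20%). None had an IgG peak, against 0.0951% of all. That cut removes most IgG peaks wherever they lie, since their median −log10 q was 2.51, beside 7.11 in BPP and 7.18 in CTR. With a fold of 5 or more, 3 were in BPP only (6.25%, against 4.17%), 8 in CTR only (16.7%, against 6.35%) and 11 in both (22.9%, against 11.3%), and none had an IgG peak, against 0.691%. Among the top 5000 peaks of each list, 7 were in BPP only (14.6%, against 4.40%), 7 in CTR only (14.6%, against 5.84%) and 11 in both (22.9%, against 10.2%).

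**Figure D1:**
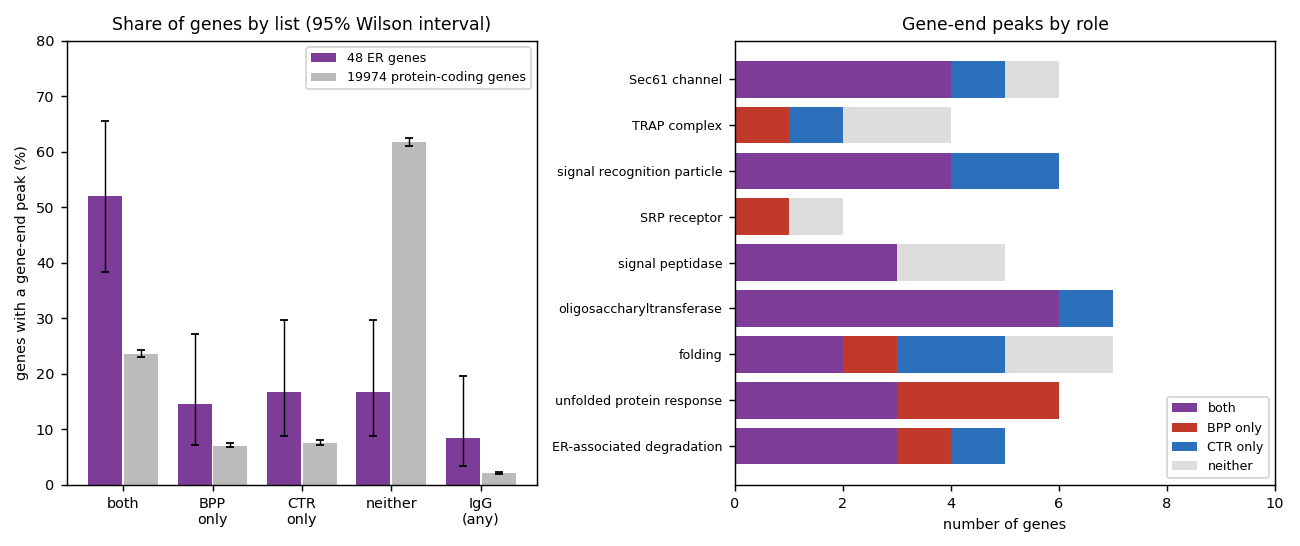
Left, percentage of the 48 ER genes and of the 19974 protein-coding genes that were marked at a gene end in both H3K27ac lists, in BPP only, in CTR only or in neither, and in IgG, with 95% Wilson intervals. Right, number of ER genes of each role in the same classes; the unfolded protein response is split between both lists (3 genes) and BPP only (3 genes).

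The marked ER genes had peak strengths near those of all marked genes. Their strongest gene-end peak had a median −log10 q of 11.65 in BPP and 9.63 in CTR, beside 9.82 and 9.55 for all genes so marked in those lists. Median fold was 4.88 in BPP and 5.40 in CTR, beside 5.02 and 5.25. The range among ER genes was wide, with −log10 q from 4.98 to 110.2 in BPP and from 2.67 to 73.1 in CTR. SEC61B was at the top in both lists. DDOST was at the bottom in CTR.

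**Figure D2:**
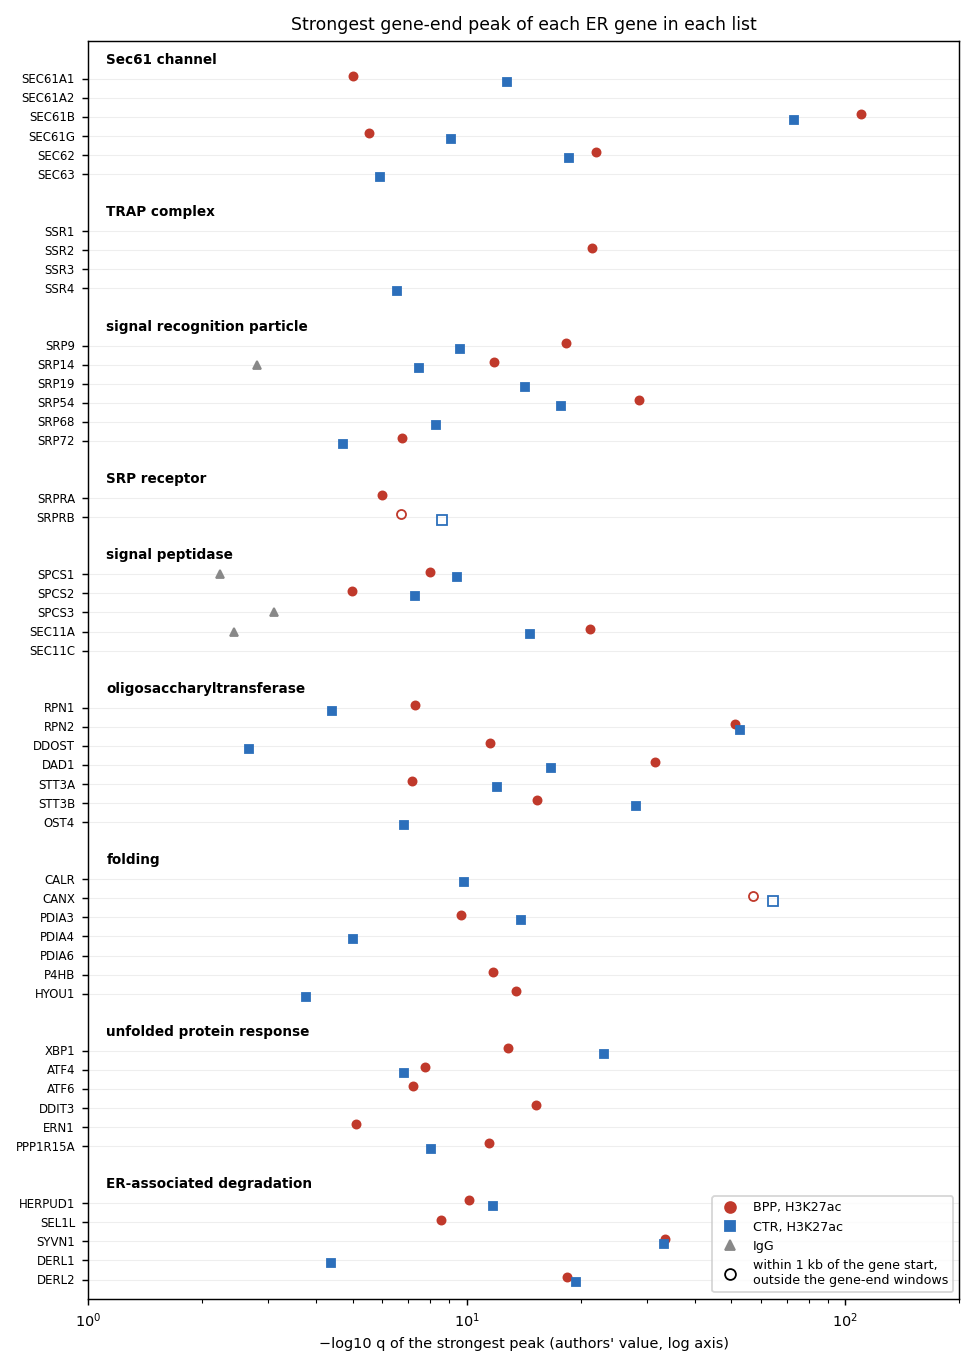
Strongest gene-end peak of each of the 48 ER genes, by role, as the authors' −log10 q on a log axis; circles are BPP, squares CTR and triangles IgG, and a missing symbol means that the list has no such peak. Open symbols are the peaks of SRPRB and CANX, which lie at the gene start but outside the gene-end windows; SEC61B lies farthest right, at 110.2 in BPP and 73.1 in CTR.

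A second table, of RefSeq promoters (300 bases, 250 before to 50 after the gene start), gave the strand and start of 42 of the 48 genes. SRPRA, SPCS1, RPN1, STT3B, PDIA3 and DERL1 had no entry. Of the 42, 22 had a peak within 1 kb of the start in both lists, against 24.1% of the 15812 protein-coding genes with a start. Another 6 had it in BPP only (14.3%, against 6.10%) and 8 in CTR only (19.0%, against 7.93%). A peak in at least 1 H3K27ac list lay near 36 of 42 ER starts (85.7%), against 38.2% of all starts. In all, 28 of 42 ER starts had a BPP peak (66.7%, against 30.2% of all starts) and 30 had a CTR peak (71.4%, against 32.1%). The 300-base promoter itself was touched by a BPP peak in 22 of 42 genes (52.4%, against 21.4% of all) and by a CTR peak in 26 (61.9%, against 25.3%). No ER promoter was touched by an IgG peak, against 0.493% of all. Of the gene-end peaks of these genes, 29 of 31 in BPP and 30 of 30 in CTR were within 1 kb of the start. The other 2 in BPP lay at the far ends of SEC61A1 and SRP9. Among the peaks within 1 kb of the start, which leaves out those 2, the median distance from summit to start was 268 bp in BPP and 224.5 bp in CTR.

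The start table changed the reading of a few genes. CANX, the gene of the membrane-bound lectin chaperone calnexin, counted as unmarked by its gene ends, because its span begins 20273 bp before the start in the promoter table. At that start it had some of the strongest peaks among the ER genes. The BPP peak (chr5:179698034-179698827) had fold enrichment 8.86 with a −log10 q of 57.0, and the CTR peak (chr5:179697981-179699323) fold enrichment 8.80 with a −log10 q of 64.5. Their summits were 4 bp apart. SRPRB, which anchors the signal recognition particle receptor in the membrane, likewise had a start 21792 bp inside its span, with peaks of fold 5.83 in BPP and 6.89 in CTR. SEC61A1, the pore-forming subunit of the channel, went the other way. It counted as marked in both lists by its ends, yet its BPP peak (chr3:128070715-128071254, fold 3.05) lay 19414 bp downstream of the start and only its CTR peak (chr3:128052432-128052736, fold 5.82) lay near the start, 956 bp into the gene.

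Sequence of the promoters that carry a known unfolded protein response element is shown first, since these elements are how ATF6 and XBP1 reach ER genes. The ER stress response element, ERSE, is CCAAT, then 9 bases of any kind, then CCACG. The related ERSE-II is ATTGG, then 1 base, then CCACG. Both were searched on both strands of every 300-base promoter, and both contain the CCAAT box that the factor NF-Y binds. ERSE was found in CALR, XBP1 and CANX, 3 of 42 ER promoters (7.14%), and in 19 of 15812 promoters in all (0.12%). ERSE-II was found in HYOU1 and HERPUD1, 2 of 42 (4.76%), and in 12 of 15812 (0.0759%). Capitals below mark these elements and 2 shorter ones described after them; the strings run 5′ to 3′ along the gene's strand and come from RefSeq, build GRCh38.p14.
CALR (chr19:12938359-12938658, plus strand): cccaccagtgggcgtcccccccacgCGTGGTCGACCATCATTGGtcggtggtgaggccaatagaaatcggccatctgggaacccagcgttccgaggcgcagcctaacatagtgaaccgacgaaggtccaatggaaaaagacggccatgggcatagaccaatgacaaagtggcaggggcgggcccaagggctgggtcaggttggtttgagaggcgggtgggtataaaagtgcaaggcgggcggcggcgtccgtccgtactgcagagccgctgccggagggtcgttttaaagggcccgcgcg
CANX (chr5:179698679-179698978, plus strand): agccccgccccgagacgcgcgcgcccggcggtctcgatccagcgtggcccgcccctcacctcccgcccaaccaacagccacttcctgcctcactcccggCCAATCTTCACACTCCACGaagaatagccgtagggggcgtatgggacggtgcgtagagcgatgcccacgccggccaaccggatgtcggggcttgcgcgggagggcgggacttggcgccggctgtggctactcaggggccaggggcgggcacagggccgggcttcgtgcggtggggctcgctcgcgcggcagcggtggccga
XBP1 (chr22:28800520-28800819, minus strand): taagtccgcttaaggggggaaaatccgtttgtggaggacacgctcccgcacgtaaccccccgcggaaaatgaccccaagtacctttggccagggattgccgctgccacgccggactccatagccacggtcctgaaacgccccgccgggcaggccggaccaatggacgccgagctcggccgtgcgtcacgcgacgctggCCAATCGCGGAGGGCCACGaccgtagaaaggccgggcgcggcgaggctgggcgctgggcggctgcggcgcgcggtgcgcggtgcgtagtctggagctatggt
HYOU1 (chr11:119057156-119057455, minus strand): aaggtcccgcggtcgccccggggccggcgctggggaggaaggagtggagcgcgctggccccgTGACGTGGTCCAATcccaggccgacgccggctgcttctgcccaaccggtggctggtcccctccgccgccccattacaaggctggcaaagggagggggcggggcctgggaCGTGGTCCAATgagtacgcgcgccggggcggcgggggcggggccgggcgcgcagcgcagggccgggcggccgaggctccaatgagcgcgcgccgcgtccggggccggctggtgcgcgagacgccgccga
HERPUD1 (chr16:56931892-56932191, plus strand): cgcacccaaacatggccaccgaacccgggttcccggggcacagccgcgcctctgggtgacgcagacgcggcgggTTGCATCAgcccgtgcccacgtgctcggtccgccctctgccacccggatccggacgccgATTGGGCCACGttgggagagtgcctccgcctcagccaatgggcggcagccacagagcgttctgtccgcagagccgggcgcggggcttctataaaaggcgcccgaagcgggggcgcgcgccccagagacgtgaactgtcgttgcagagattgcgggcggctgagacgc

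Counting from 0 at the gene start, ERSE spans −225 to −207 in CALR (read on the opposite strand), −151 to −133 in CANX and −52 to −34 in XBP1. HYOU1 has ERSE-II on the opposite strand in 2 copies, at −185 to −175 and at −79 to −69, and HERPUD1 has a copy at −117 to −107. The core of the unfolded protein response element, TGACGTG, was present in 3 of 42 ER promoters (HYOU1, SEC62 and SRP19), against 2.11% of all promoters, and in HYOU1 it shares bases with the first ERSE-II copy. The core of the C/EBP-ATF element that ATF4 uses, TTNCATCA, was present in HERPUD1 and SRPRB, against 2.54% of all. A plain CCAAT box stood in 24 of 42 (57.1%), against 36.3%. Each of these matches is a description of the letters in the window. The elements were searched because they are known from promoters of this response, so their shares among ER genes are not an independent finding. Of the 5 genes with ERSE or ERSE-II, 4 had a BPP peak within 1 kb of the start, CALR being the exception, and all 5 had a CTR peak there. Among all 42 ER starts the shares were 66.7% in BPP and 71.4% in CTR, beside 30.2% and 32.1% of all starts. The CTR peak covered the whole 300-base promoter of CANX, XBP1 and HERPUD1 and 66.7% of that of CALR, and did not touch that of HYOU1. BPP peaks covered 49.7% of the CANX promoter, 45.0% of that of XBP1, 19.0% of that of HERPUD1 and 11.7% of that of HYOU1.

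Among genes of the Sec61 channel, 4 of 6 had a gene-end peak in both lists, 1 in CTR only and 1 in neither. Over all protein-coding genes the shares were 23.6%, 7.57% and 61.8%. Each role holds 2 to 7 genes, and no role was tested against another. SEC61B encodes a small subunit of the channel and had the surest ER peak of both lists, over a stretch that also reaches an end of ALG2, a mannosyltransferase gene of the glycosylation pathway. Its BPP peak (chr9:99221760-99222573) had fold enrichment 13.43 with a −log10 q of 110.2, rank 84 of 17841. Its CTR peak (chr9:99221558-99222836) had fold enrichment 10.91 with a −log10 q of 73.1, rank 174 of 14836. SEC62, which aids the import of small proteins, had folds of 8.18 in BPP and 7.41 in CTR, with summits 2 bp apart. SEC61G, the other small subunit, was weaker, with 2 BPP peaks of fold 4.52 and 3.74 and a CTR peak of fold 6.04. SEC63, a J-domain partner of the channel, had a CTR peak over its start (chr6:107957969-107958315, fold 4.32, −log10 q 5.91), and the nearest BPP peak lay 77.4 kb away inside the gene. SEC61A2, a paralog of the pore subunit, had no peak at all, the nearest being 25.6 kb away in BPP and 26.2 kb in CTR.

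The translocon-associated protein (TRAP) complex, which sits beside the channel, had no gene marked in both lists, where 23.6% of all genes were. SSR2 had a BPP peak over its start (chr1:156020279-156020997) with a fold of 7.39, a −log10 q of 21.4 and rank 1280, and the nearest CTR peak was 21.1 kb away. It was the surest peak among the 7 ER genes marked in BPP only. SSR4 had a CTR peak (chrX:153793977-153794323, fold 3.91, −log10 q 6.55) whose summit lay 272 bp upstream of its start and which also reaches an end of IDH3G, a mitochondrial enzyme gene. The nearest BPP peak was 66.9 kb away. SSR1 and SSR3 had no peak in any list, and the nearest to SSR1 was 19.7 kb off in BPP and in CTR. The promoter of SSR2 is printed because its peak is in one list only, with capitals for the 96 bases that the BPP peak covers.
SSR2 (chr1:156020902-156021201, minus strand): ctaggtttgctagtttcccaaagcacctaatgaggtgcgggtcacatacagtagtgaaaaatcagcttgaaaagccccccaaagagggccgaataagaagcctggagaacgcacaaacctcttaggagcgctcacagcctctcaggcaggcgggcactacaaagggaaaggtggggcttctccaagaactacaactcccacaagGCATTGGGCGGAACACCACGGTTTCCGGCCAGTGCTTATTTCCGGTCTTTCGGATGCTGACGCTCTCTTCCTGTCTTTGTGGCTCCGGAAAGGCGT

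All 6 genes of the signal recognition particle were marked, 4 in both lists and 2 in CTR only, against 23.6% and 7.57% of all genes. SRP54, the subunit that binds the signal sequence, had the surest peaks, just upstream of its start. The BPP peak (chr14:34982120-34982982) had fold enrichment 7.38 with a −log10 q of 28.5, and the CTR peak (chr14:34982287-34982984) fold enrichment 6.53 with a −log10 q of 17.8. SRP9 and SRP14, which together slow translation, had folds of 6.72 and 5.70 in BPP and 5.55 and 4.96 in CTR. At SRP14 an IgG peak of fold 4.62 lay 0.176 kb from the CTR peak and 0.307 kb from the BPP peak without touching either. SRP72, a subunit that binds the particle's RNA, had weaker peaks of fold 4.08 in BPP and 3.35 in CTR. Its summits were 1 bp apart. SRP19, which helps assemble the particle, had a CTR peak at its start (chr5:112861294-112861608, fold 7.30, −log10 q 14.3), with the nearest BPP peak 106.3 kb away. SRP68, the partner of SRP72, had a CTR peak (chr17:76072109-76072751, fold 5.07, −log10 q 8.31) that also reaches an end of the receptor gene GALR2, with the nearest BPP peak 30.7 kb away.

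The receptor for the particle is made of SRPRA and SRPRB. SRPRA had a gene-end peak in BPP only (chr11:126268885-126269334, fold 4.78, −log10 q 5.98), shared with an end of FOXRED1, and the nearest CTR peak lay 152.6 kb away. SRPRB was marked at its start in both lists, as given above.

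Of 5 signal peptidase genes, 3 were marked in both lists and 2 in neither, and 3 had an IgG gene-end peak. The shares over all genes were 23.6%, 61.8% and 2.13%. SEC11A, a catalytic subunit, had the surest H3K27ac peaks, with a fold of 6.95 in BPP (chr15:84716127-84716701, −log10 q 21.2) and 6.49 in CTR (chr15:84715936-84716537, −log10 q 14.75). Its IgG peak of fold 4.11 was at the far end, 46974 bp from the start. SPCS1, an accessory subunit, had a BPP peak (chr3:52704685-52705241, fold 4.37, −log10 q 8.01) that overlapped an IgG peak of fold 4.00 and lay 0.83 kb from its CTR peak (chr3:52706071-52706850, fold 4.60, −log10 q 9.42). These peaks also reach an end of GLT8D1. With H3K27ac peaks that overlap IgG left out, SPCS1 counted as marked in CTR only. At SPCS2 the BPP peak was downstream of the start and the CTR peak upstream, with folds of 4.07 and 5.05 and a gap of 0.206 kb. Both SPCS2 peaks also reach an end of XRRA1. SPCS3 had an IgG peak of fold 4.87 at its far end and its nearest H3K27ac peak, in CTR, was 860.5 kb away. SEC11C, the alternative catalytic subunit, had no peak, with the nearest 199.9 kb away in BPP.

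Of 7 oligosaccharyltransferase genes, 6 were marked in both lists and 1 in CTR only, against 23.6% and 7.57% of all genes. RPN2, a subunit of the complex, had wide peaks over its start in both, which also reach an end of MROH8. The BPP peak (chr20:37178427-37179775) had fold enrichment 8.18 with a −log10 q of 51.0, rank 275, and the CTR peak (chr20:37178476-37179893) fold enrichment 8.76 with a −log10 q of 52.7, rank 259. DAD1 had folds of 9.45 in BPP and 7.37 in CTR. The catalytic subunits STT3A and STT3B had folds of 5.13 and 6.05 in BPP and 7.02 and 8.33 in CTR. RPN1 had folds of 3.99 in BPP and 3.31 in CTR. DDOST had a BPP peak of fold 4.70 (−log10 q 11.56) and a CTR peak of fold 2.76 whose −log10 q of 2.67 put it at rank 14798 of 14836. Both DDOST peaks also reach an end of KIF17. OST4, the smallest subunit, had a CTR peak (chr2:27071291-27071606, fold 3.92, −log10 q 6.82) that also reaches an end of AGBL5, and the nearest BPP peak was 20.009 kb away.

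Of 7 folding genes, 2 were marked at gene ends in both lists, 1 in BPP only, 2 in CTR only and 2 in neither. The shares over all genes were 23.6%, 7.03%, 7.57% and 61.8%. CALR, the soluble lectin chaperone calreticulin, had a CTR peak across its start (chr19:12938459-12938778, fold 4.35, −log10 q 9.87, rank 4612), and the nearest BPP peak was 10.7 kb away. PDIA4, a disulfide isomerase, had a CTR peak at its start (chr7:149028326-149028642, fold 4.11, −log10 q 5.01) and another inside the gene of fold 3.91, with the nearest BPP peak 9.679 kb from the start peak. P4HB, the gene of protein disulfide isomerase, had a BPP peak 935 bp upstream of its start (chr17:81861285-81861616, fold 3.77, −log10 q 11.7). It lay outside the window at 500 bp, and the nearest CTR peak was 6.406 kb away. PDIA3, the isomerase that works with calnexin and calreticulin, was marked in both lists, with folds of 4.58 in BPP (chr15:43746619-43747210, −log10 q 9.69) and 5.40 in CTR (chr15:43745889-43747001, −log10 q 13.9). HYOU1, a large ER chaperone, had a BPP peak 432 bp upstream (chr11:119057421-119057779, fold 4.73, −log10 q 13.5) and a CTR peak 716 bp downstream (chr11:119056407-119056935, fold 2.80, −log10 q 3.77). The pair did not overlap. PDIA6 had no peak, with the nearest 181.4 kb away in BPP and 105.6 kb in CTR.

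All 6 unfolded protein response genes were marked in BPP, 3 of them in both lists and 3 in BPP only, where 30.6% of all genes were marked in BPP, 23.6% in both and 7.03% in BPP only. With a fold of 5 or more required, none of the 6 was marked in BPP, XBP1 was in CTR only and the other 5 were in neither. With a window of 500 bp, or with the summit required in the window, PPP1R15A was in CTR only. XBP1, the factor activated by splicing, had 2 BPP peaks, of fold 4.62 (chr22:28800685-28801033, −log10 q 12.9) and 4.33 (chr22:28799405-28800308, −log10 q 11.3). A CTR peak of 1076 bp (chr22:28799887-28800962, fold 5.98, −log10 q 23.1) spanned the ground between them. ATF4, the factor whose translation rises under stress, had overlapping peaks with low folds of 2.93 in BPP and 3.03 in CTR. PPP1R15A, which restores translation, had folds of 3.93 in BPP and 3.62 in CTR, with summits 1032 and 936 bp into the gene. DDIT3, the gene of the stress factor CHOP, had the widest ER peak in BPP, 2568 bp (chr12:57519762-57522329, fold 3.38, −log10 q 15.2), and the nearest CTR peak was 17.9 kb away. That peak also reaches ends of MBD6 and LOC128125814. ATF6, the membrane-bound sensor and factor, had a BPP peak 377 bp into the gene (chr1:161766530-161766819, fold 4.98, −log10 q 7.23), with the nearest CTR peak 16.2 kb away.

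ERN1, the sensor that splices XBP1 RNA, had a BPP peak 355 bp upstream of its start (chr17:64130316-64130710, fold 4.43, −log10 q 5.11). Its CTR peak (fold 4.80, −log10 q 5.10) and an IgG peak (fold 5.00, −log10 q 3.37) lay elsewhere inside the gene, 36595 and 20682 bp from the start. Counted over the whole span, ERN1 was marked in both lists. With so few genes in a role, the absence of a CTR-only gene here in the main count was not tested against the other roles.

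**Figure D3:**
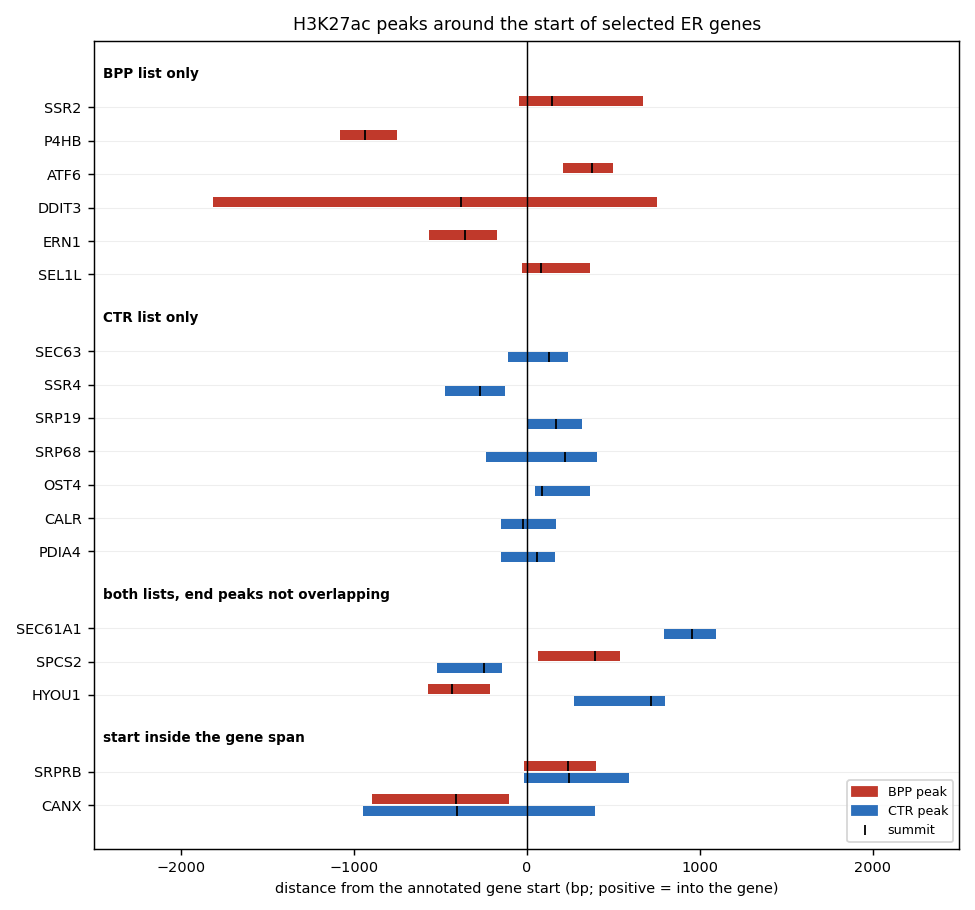
H3K27ac peaks within 2.5 kb of the annotated start of ER genes marked at their ends in BPP only, in CTR only, in both without overlap, or at a start inside the gene span; bars are peaks, black ticks summits, and the x axis is distance from the start in bp. DDIT3 has the widest BPP peak, at 2568 bp, and the peaks of CANX and SRPRB lie together in both lists.

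ER-associated degradation draws misfolded proteins back to the cytosol for the proteasome. Of its 5 genes, 3 were marked in both lists, 1 in BPP only and 1 in CTR only. The shares over all genes were 23.6%, 7.03% and 7.57%. SYVN1, the ubiquitin ligase HRD1, had the surest peaks, with a fold of 6.19 in BPP (chr11:65134366-65135236, −log10 q 33.5) and 7.24 in CTR (chr11:65134537-65135093, −log10 q 33.3) and the same summit in both. An IgG peak lay 0.822 kb from the BPP peak. HERPUD1 had 2 BPP peaks of fold 4.99 and 4.16 on either side of its start, and a single CTR peak of 1403 bp and fold 5.53 across both places. DERL2, a membrane protein of the same route, had folds of 8.46 in BPP and 8.45 in CTR at a place that also reaches an end of MIS12. SEL1L, the partner of SYVN1, had a BPP peak at its start (chr14:81533487-81533884, fold 6.35, −log10 q 8.54), with the nearest CTR peak 286.6 kb away. DERL1 had a CTR peak (chr8:123041891-123042616, fold 4.03, −log10 q 4.38), with the nearest BPP peak 30.2 kb away.

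Where both lists marked the same gene, the peaks usually coincided. Of the 25 ER genes marked at their ends in both lists, 21 had overlapping BPP and CTR peaks (84.0%), against 95% of the 4710 genes marked in both. The 4 others were SEC61A1, SPCS1, SPCS2 and HYOU1. With an overlap of at least 50% of both peaks required, 17 of the 25 had overlapping peaks (68.0%, against 72.8%). Among the 22 genes marked at their start in both, the median gap between the summits of the strongest BPP and the strongest CTR peak was 102.5 bp, 11 were within 100 bp and 4 were over 500 bp apart. Those 4 were HYOU1, SEC61G, HERPUD1 and SPCS2, with gaps of 1148, 708, 671 and 641 bp. HERPUD1 and SEC61G each had a second BPP peak there, with a summit 0 and 167 bp from the CTR summit. With the nearest pair of summits instead, a choice made after seeing the data, the median gap was 89.5 bp, and 2 genes, HYOU1 and SPCS2, were over 500 bp apart. Summit gaps over all genes marked in both lists are not given here, so whether these gaps are usual was not tested.

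**Figure D4:**
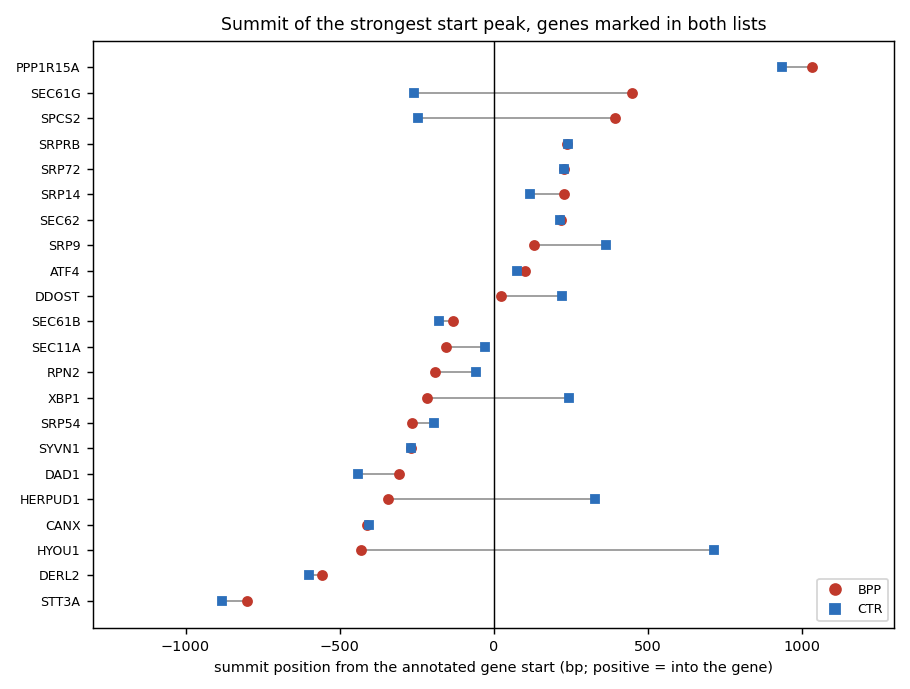
Summit of the strongest peak within 1 kb of the annotated start in BPP (circles) and CTR (squares) for the 22 ER genes marked there in both lists, with a line joining the pair; the x axis is bp from the start, positive into the gene. SYVN1, SRP72, SEC62, CANX and SRPRB coincide within 4 bp, and HYOU1 has the longest line, at 1148 bp.

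Genes marked in one list only had a lower median −log10 q than those marked in both. The 7 ER genes marked in BPP only had a median −log10 q of 8.54 there, beside 11.79 for the 25 marked in both, and over all genes the medians were 6.49 and 11.36. In CTR the 8 marked in CTR only had a median of 6.68, beside 12.02 for the 25, and over all genes 7.07 and 10.78. These are descriptions of each list. Peaks that also reach an end of another protein-coding gene were found at 2 of the 7 BPP-only genes, 3 of the 8 CTR-only genes and 6 of the 25 genes in both. With genes not annotated as protein-coding counted too, the numbers were 5 of 7, 3 of 8 and 14 of 25. The BPP-only peaks of SSR2, P4HB and ATF6 are among those that reach only such a gene. Wherever another gene is reached, the mark cannot be assigned to the ER gene from the lists. The same count over all genes is not given here, so whether these counts are usual was not tested.

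The 6 genes with a known start and no H3K27ac peak near it were SEC61A2, SSR1, SSR3, SPCS3, SEC11C and PDIA6. Their promoters held from 15 CpG (PDIA6) to 45 (SEC61A2 and SPCS3), and whether this bears on the missing peaks was not tested. The median was 31.5 CpG in 300 bases, beside 26 in the 36 ER promoters with a peak within 1 kb of the start, 16 in all promoters without such a peak and 26 in all with one. Median GC content was 67.5% in the 6 and 64.3% in the 36.

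A further list of 67 other ER genes, drawn up from the same pathways, was counted in the same way. It was chosen with earlier results of these data known and is not an independent repeat. Of these 67, 32 had a gene-end peak in both lists, 3 in BPP only, 8 in CTR only and 24 in neither, and 2 had one in IgG. That is 47.8% in both (against 23.6% of all genes), 4.48% in BPP only (against 7.03%), 11.9% in CTR only (against 7.57%), 35.8% in neither (against 61.8%) and 2.99% in IgG (against 2.13%). Those in BPP only were SESN2, a stress-induced regulator (fold 4.47, −log10 q 9.97), MBTPS2, a protease that cleaves ATF6 (fold 7.28, −log10 q 9.60), and CEBPB, a transcription factor (fold 3.13, −log10 q 7.29). CEBPB had no peak within 1 kb of its annotated start in either list. The surest in CTR only was TMCO1, an ER membrane protein of the translocon (fold 5.49, −log10 q 10.57). It was followed by UBE2J1, a ubiquitin-conjugating enzyme of ER-associated degradation (fold 5.27, −log10 q 9.38), and GET1, part of the receptor that inserts tail-anchored proteins (fold 5.20, −log10 q 7.93), which also had an IgG gene-end peak. MAGT1, an oligosaccharyltransferase subunit, had a fold of 5.51, and EMC8 and EMC1, of the ER membrane insertase, had folds of 4.18 and 3.81. Annotated starts were at hand for 59 of the 67 genes. Within 1 kb of these starts, 27 had a peak in both lists, 2 in BPP only and 10 in CTR only. The shares over all starts were 24.1%, 6.10% and 7.93%.

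The count of genes marked in both lists depended on peak strength. It was 11 of 48 with peaks of fold 5 or more and 11 of 48 with the top 5000 peaks of each list, against 11.3% and 10.2% of all genes. Chosen after their values were seen, SRP19 and SSR2 kept their class, CTR only and BPP only, under all 9 alternatives.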

How the data were processed

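H3K27ac CUT&Tag in A2780 cells was deposited as one narrowPeak list per library (BPP, CTR, IgG, 1 library each, grouped by sample title), so no peaks were called on pooled samples. The genome build was GRCh38.p13 (hg38), per the submitters' processing notes, which also name deepTools 3.3.0, Bowtie2 2.4.1 and fastp. Which caller made the peaks, and whether IgG was its control, is not given in the sources used here. Each row holds values deposited by the authors for that peak: a fold ratio over an undescribed background, a −log10 p, a −log10 q, a summit offset, and a score equal to 10 times −log10 p cut to a whole number. No reads were counted here and depth is unknown, so a missing peak may reflect depth or threshold.

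Only peaks of chromosomes 1 to 22 and X entered (28 BPP, 37 CTR and 14 IgG peaks left out) and counted from 1. Gene spans came from a RefSeq table (GRCh38.p14), and starts, strands and promoter sequences from a RefSeq promoter table of that build; patch releases keep chromosome coordinates. A peak counted for a gene from 1 bp of overlap with a window of 1 kb on either side of a gene end. Every member was counted by role. Described in full were members with a gene-end peak in one H3K27ac list only, those with an IgG peak and the surest per role and list. Up to 6 other ER genes per list with a gene-end peak in one H3K27ac list only were named by −log10 q. CANX, SRPRB, SEC61A1, HYOU1, SPCS2 and the unmarked genes were singled out after their values were seen, as were the remaining genes given by fold. The members and lists were chosen with earlier results of these data known. With 1 library per group no test was made; shares have 95% Wilson intervals. Software was matplotlib 3.10.9, scipy 1.17.1, pandas 2.3.3 and numpy 2.4.6 under Python 3.11.15. The overlap step was tested on simulated data, and gene counts equalled those of bedtools 2.31.1 (6115, 6223 and 426 genes). Alternatives varied the window, the use of the span or start, peak strength, list length, IgG overlap, summit position and the overlap needed.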

Additional observations from a re-analysis of the deposited data

How the results depend on the processing

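Of 9 alternatives, windows of 500 bp or 2 kb, the gene span, the gene start, summits in the window and removal of peaks over IgG left the numbers of ER genes in both lists, in BPP only and in CTR only within 1.5 times of 25, 7 and 8. With −log10 q of 5 or more, 11 genes were in BPP only (22.9%, against 6.89% of all genes), 8 in CTR only (16.7%, against 7.20%) and 0 had an IgG peak (against 0.0951%). Most IgG peaks fall below that value wherever they lie, their median being 2.51. DDOST, HYOU1, RPN1 and SRP72 entered BPP only, having CTR peaks below that value. SPCS2, with a BPP −log10 q of 4.98, entered CTR only, and DERL1, with a CTR −log10 q of 4.38, left CTR only for neither list. With a fold of 5 or more, 11 were in both (22.9%, against 11.3%), 3 in BPP only (6.25%, against 4.17%), 8 in CTR only (16.7%, against 6.35%) and 0 in IgG (against 0.691%). With the top 5000 peaks, 11 were in both (22.9%, against 10.2%). At gene starts, 1 of 42 had an IgG peak (2.38%, against 1.35%). Requiring overlap of at least 50% of both peaks left 17 of 25 genes with overlapping peaks (68.0%, against 72.8% of the 4710 genes marked in both). No gene marked in BPP only became CTR only, or the reverse, in any alternative. Leaving libraries out was not run, because each group had 1 library. No paired analysis was possible because each group had 1 library. Unknown depth limits any reading of a missing peak.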
